A study of Homo sapiens with 12 samples.

Results

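HCT116 is a cell line from a human colorectal carcinoma. H3K27ac, the acetylation of histone H3 at lysine 27 that marks active promoters and enhancers, was profiled in it by CUT&RUN, in which an antibody tethers a nuclease to marked chromatin and the released fragments are sequenced. Untreated cells, cells given cobimetinib (1 μM, 24 hours), an inhibitor of the kinase MEK in the MAPK pathway, and cells given the inflammatory cytokine TNFα (100 ng/ml, 24 hours) each gave 2 H3K27ac libraries. All 6 came from this 1 line, and no vehicle is named for the untreated cells. The regions described here lie around 10 genes near LTR10 elements that the study examined, several of them by CRISPR: ATG12, AP3S1, XRCC4, TMEM167A, VCAN, MEF2D, FGF2, MCPH1, AGPAT5 and GPR137B. They are the H3K27ac regions within 100 kb of any GENCODE transcript start of these genes or inside their bodies. There were 62 such regions of 38598 in all, at 6 loci: 9 at ATG12/AP3S1, 12 at XRCC4/TMEM167A/VCAN, 11 at MEF2D, 7 at FGF2, 19 at MCPH1/AGPAT5 and 4 at GPR137B. A start site of a protein-coding gene lay within 1 kb of 15 of them, and 47 were distal.

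LTR10 elements are the long terminal repeats of an old primate retrovirus, and some copies hold tandem repeats that carry the recognition word of AP1. AP1 is the Fos and Jun family of transcription factors, which acts downstream of both MAPK signaling and TNFα. The genes themselves have unrelated roles. ATG12 is a ubiquitin-like protein of autophagosome formation and AP3S1 a subunit of an adaptor complex of vesicle transport. XRCC4 joins broken DNA ends together with DNA ligase IV, MCPH1 acts in the DNA damage response and chromosome condensation, MEF2D is a transcription factor and FGF2 a growth factor. VCAN is a proteoglycan of the extracellular matrix, AGPAT5 an acyltransferase of phospholipid synthesis, and GPR137B and TMEM167A are membrane proteins.

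The lists held between 69813 and 124771 peaks per library, and the number of reads behind them is unknown. A peak's rank by score within its own list (1 for the highest, ties averaged) is therefore the level used throughout. Untreated replicate 2 stood apart by its narrow peaks, with a median width of 380 bp among its 20000 highest peaks. The other 5 libraries had 922 to 1265.5 bp. Differences of single regions from untreated cells printed below are therefore also given without untreated replicate 2. Medians over sets of regions include it unless stated. A fit that leaves out 1 library has a lone library in that group, which is then assumed to vary like the other group, so such a fit shows how a value moves and is weak ground for its p. Of 8 start sites of epithelial marker genes, 7 had a region. KRT8 alone was held by all 6 libraries, EPCAM, CLDN4 and CLDN7 by 5, KRT18 by 3, CDH1 by 2 and KRT19 by 1. VIL1 had no region. Of 8 start sites of blood, endothelial, liver, glial and heart genes, 2 had one, in at most 2 libraries. The study's methods call the libraries treatment replicates, and the labels name no separate cultures, so p-values measure only the spread between these samples, which may be partly technical.

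The words TGACTCA and TGAGTCA, which are reverse complements of each other and together cover both strands, occurred in 19 of the 62 regions (30.6%) and in 32.3% of all regions. Tandem arrays, defined as 3 or more words whose starts lay 26 to 32 bp apart, were found in 5 of the 62 regions (8.06%) and in 36 of all regions (0.0933%). The genes were chosen by the study for their LTR10 neighbours, so this share is not independent of that choice. The arrays near GPR137B and FGF2 are printed on the plus strand of hg38, with the AP1 words in capitals, to show the repeat unit.
Upstream of GPR137B, chr1:236097120-236097387: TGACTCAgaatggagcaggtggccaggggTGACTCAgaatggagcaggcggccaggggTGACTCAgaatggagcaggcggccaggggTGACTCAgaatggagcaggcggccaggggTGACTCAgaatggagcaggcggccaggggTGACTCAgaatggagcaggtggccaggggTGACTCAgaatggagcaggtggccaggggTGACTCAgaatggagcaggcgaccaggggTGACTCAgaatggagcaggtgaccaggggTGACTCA
Upstream of FGF2, chr4:122786412-122786502: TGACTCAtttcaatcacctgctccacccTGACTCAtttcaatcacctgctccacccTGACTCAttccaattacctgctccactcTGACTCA
The arrays near AP3S1 and GPR137B held 10 words each, a number that only 4 arrays in the genome reached. The step between words was 28 bp in every array of the 6 loci except that near GPR137B, where it was 29 bp. Beyond TMEM167A, 1 region held an array of 3 words and another held an array of 3 and an array of 4. All 6 arrays were intergenic. They lay 86895 bp from the canonical start of AP3S1, 45152 bp from that of GPR137B, 40329 bp from that of FGF2 and between 101235 and 107904 bp from that of TMEM167A, where the region with 1 array is inside the 100 kb limit only through an alternative TMEM167A transcript. No array was found in the windows of MEF2D or MCPH1/AGPAT5.

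A second stretch of sequence was shared between the loci. The 300 bases before the GPR137B array were aligned to every region, a step chosen after the data were seen. A match was found in 7 of the 62 regions (11.3%) and in 117 of all regions (0.303%). The GPR137B region is the source of the stretch and matches itself, and the other 6 matches lay at the other 5 loci. As for the arrays, this share is not independent of the choice of genes, nor of the stretch, which came from a member region. Its sequence is printed with its AP1 word in capitals, followed by the matching stretch at MEF2D, in which capitals mark the bases identical to it.
GPR137B, chr1:236096820-236097119, plus strand: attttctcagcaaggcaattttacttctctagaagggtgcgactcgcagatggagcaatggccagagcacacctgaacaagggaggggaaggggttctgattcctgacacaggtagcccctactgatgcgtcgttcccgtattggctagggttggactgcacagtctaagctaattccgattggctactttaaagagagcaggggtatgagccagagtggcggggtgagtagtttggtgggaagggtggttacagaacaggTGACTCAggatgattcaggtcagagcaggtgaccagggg
MEF2D, chr1:156399042-156399238, minus strand: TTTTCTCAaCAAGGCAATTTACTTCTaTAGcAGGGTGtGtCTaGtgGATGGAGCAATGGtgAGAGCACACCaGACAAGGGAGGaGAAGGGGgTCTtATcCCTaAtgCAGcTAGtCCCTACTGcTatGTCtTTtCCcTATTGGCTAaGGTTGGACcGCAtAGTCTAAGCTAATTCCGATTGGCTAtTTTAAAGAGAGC
The MEF2D match was 83.9% identical over 199 aligned positions and the ATG12/AP3S1 match 80.1% over 196. The FGF2 match reached 83.3%, both matches beyond TMEM167A 75.2% and 80.9%, and the match between MCPH1 and AGPAT5 77% over 291 positions. The MEF2D and MCPH1/AGPAT5 regions with the match held no exact AP1 word. Of the 36 array regions, 30 had the match, and 87 regions had the match without an array. A repeat annotation was not used here, so the match describes shared sequence and does not name a repeat.

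The 7 regions with this shared sequence covered nearly the whole range of H3K27ac ranks. The GPR137B region, chr1:236096555-236097717, 44.8 kb upstream of the gene, ranked 8 and 89 in untreated libraries, 4 and 12 in cobimetinib libraries, and 15 and 123 in TNFα libraries. It had the best rank of all array regions in 5 libraries and the second best in TNFα replicate 2. Both cobimetinib libraries ranked it above both TNFα libraries, with a log2 rank difference (TNFα minus cobimetinib, positive where TNFα gave the better rank) of -2.63 ± 0.94 (SE, n = 2 against 2). By limma with Benjamini-Hochberg adjustment over all regions this did not pass the threshold of 0.05 (adjusted p = 0.0783). Leaving out 1 library moved it between -1.11 (without TNFα replicate 2, adjusted p = 0.763) and -4.15 (without TNFα replicate 1, adjusted p = 0.0495), with -1.84 without cobimetinib replicate 1 (adjusted p = 0.091) and -3.42 without cobimetinib replicate 2 (adjusted p = 2.34e-05). The value thus depended on which single library stood for a group.

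The ATG12/AP3S1 region with its 18 AP1 words, chr5:115927190-115931614, ranked 1041.5 and 932 in untreated libraries, 2943.5 and 1188 under cobimetinib, and 1076.5 and 1229 under TNFα. Cobimetinib replicate 1 ranked it lowest, and TNFα and cobimetinib libraries overlapped. Its differences were -0.92 ± 1.02 for cobimetinib against untreated (adjusted p = 0.823), -0.22 ± 0.92 for TNFα against untreated (adjusted p = 0.976) and 0.70 ± 0.86 for TNFα against cobimetinib (adjusted p = 0.694, limma). Without untreated replicate 2 the first was -0.84 and the second -0.14. The widest single peak there spanned 4349 bp in cobimetinib replicate 2 and the narrowest of the 6 best peaks 1107 bp in untreated replicate 2.

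Both array regions beyond TMEM167A were held by all 6 libraries, where a library holds a region if at least 1 bp of it overlaps one of its 20000 highest peaks. The region chr5:82969008-82970411 ranked 3411.5 and 5496.5 in untreated libraries, 1485 and 2221.5 under cobimetinib, and 2038 and 1890 under TNFα. Every treated library thus ranked it above both untreated libraries, but neither difference passed limma (1.25 ± 0.95, adjusted p = 0.73 for cobimetinib, and 1.14 ± 0.86, adjusted p = 0.903 for TNFα). Without untreated replicate 2 these were 0.91 and 0.80. The region chr5:82973733-82977565 ranked 5187 and 1212.5, 1036 and 1143.5, and 1551.5 and 3915 in the same order. There the untreated and TNFα libraries overlapped and both cobimetinib libraries ranked it above the others, with a TNFα minus cobimetinib difference of -1.18 ± 0.85 (adjusted p = 0.45, limma).

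The FGF2 array region was the weakest of the 7. At chr4:122786051-122786834, it had a deposited peak at rank 41688.5 in untreated replicate 1, at 14458 in TNFα replicate 1 and at 32591 in TNFα replicate 2. Untreated replicate 2 and both cobimetinib libraries listed no peak there. TNFα replicate 1 alone held it among its 20000 highest, and no fit could be made because peaks were missing.

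**Figure D1:**
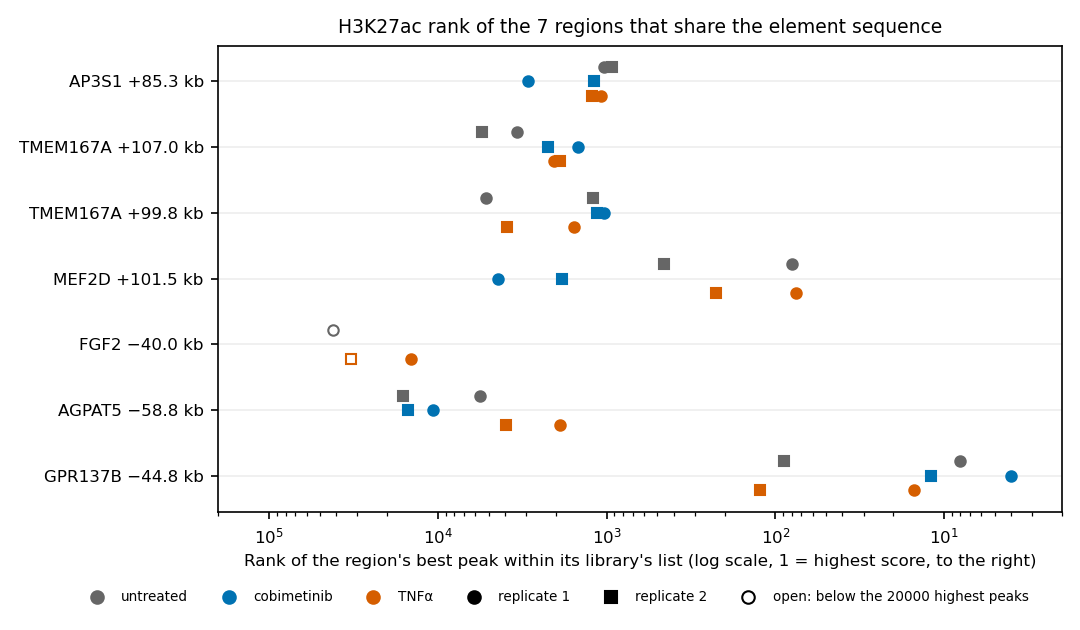
Rank of the best H3K27ac peak in the 7 regions with the shared sequence, by library (log axis, better ranks to the right; colours are conditions, circles replicate 1, squares replicate 2, open symbols peaks below the 20000 highest). Rows are named by distance from the nearest canonical start of a member gene. The GPR137B region sits between 4 and 123 in all libraries, and the MEF2D and AGPAT5 rows show both TNFα libraries to the right of both cobimetinib libraries.

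Between TNFα and cobimetinib, 5 of the 39 regions that could be tested passed limma (12.8%, against 7.43% of all 21911 regions tested). TNFα gave the better rank at 4 of them (10.3%, against 4.59% of all regions): 1 at MEF2D and 3 at MCPH1/AGPAT5. Cobimetinib gave the better rank at 1, at FGF2 (2.56%, against 2.85%). The median difference over the 39 regions was 0.24, and over all regions -0.08. No region at ATG12/AP3S1, XRCC4/TMEM167A/VCAN or GPR137B passed. Of the 39, 12 had an unadjusted p under 0.05 by limma, beside 21.6% of all regions tested. None of the 5 passed when all 6 libraries shared one estimate of the spread.

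The largest difference was at MEF2D. The region chr1:156397511-156399303 lies in intergenic DNA 101.5 kb downstream of the canonical start and holds the sequence match printed above. It ranked 79.5 and 459.5 in untreated libraries, 4408 and 1828 under cobimetinib, and 75 and 226 under TNFα. The cobimetinib libraries were both far below the other 4, which overlapped. TNFα minus cobimetinib was 4.45 ± 0.95, a 21.8-fold better rank (adjusted p = 0.00186, limma). Without TNFα replicate 1 it was 3.65 (adjusted p = 0.0556). Against untreated cells, cobimetinib gave -3.89 ± 1.15, which did not pass (adjusted p = 0.268), and TNFα 0.55 ± 1.27 (adjusted p = 0.957). Without untreated replicate 2, against untreated replicate 1 alone, these were -5.16 (adjusted p = 0.0116) and -0.71 (adjusted p = 0.905), so the sign of the second was not settled. Its best peak was also wider under TNFα, at 1793 and 1615 bp, than under cobimetinib, at 1222 and 683 bp, with 1172 and 926 bp in untreated cells.

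At the MEF2D start sites the difference had the opposite sign and did not pass. The region at the canonical start, chr1:156500487-156501822, overlapping a UTR exon, ranked 8890.5 and 2844.5 in untreated libraries, 1587 and 4120.5 under cobimetinib, and 7224 and 11687.5 under TNFα. The difference between TNFα and cobimetinib was -1.85 ± 0.71 (adjusted p = 0.107, limma). Leaving out 1 library moved it between -1.16 (without cobimetinib replicate 1, adjusted p = 0.467) and -2.53 (without cobimetinib replicate 2, adjusted p = 0.0366), and merging within 500 bp gave -0.93 (adjusted p = 0.509). At the alternative start within the gene, chr1:156490290-156491243, ranks were 14392.5 and 12386, 17447 and 9996, and 44927.5 and 48561.5 in the same order. The TNFα libraries fell below the 20000 highest peaks there and did not overlap the other 4 (-1.82 ± 0.65 against cobimetinib, adjusted p = 0.0783). The distal region 78.6 kb downstream, chr1:156420862-156422198, was held by both TNFα libraries and neither cobimetinib library, with a difference of 1.37 ± 0.59 (adjusted p = 0.156). The remaining distal regions with good ranks, 42.7 kb downstream (chr1:156456349-156458055) and 1.5 kb upstream (chr1:156502302-156504699, with 2 AP1 words), differed by -0.18 ± 0.66 and 0.26 ± 0.68.

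At MCPH1/AGPAT5, 3 distal regions ranked better under TNFα than under cobimetinib. The region chr8:6557029-6558167, in introns of MCPH1 and of ANGPT2, an angiopoietin gene that lies within MCPH1, ranked 5467.5 and 9918.5 in untreated libraries, 26561 and 20944.5 under cobimetinib, and 6702 and 3002 under TNFα. The cobimetinib libraries both lay below the other 4 (2.39 ± 0.59, a 5.26-fold better rank under TNFα, adjusted p = 0.00718, limma). This fell short without cobimetinib replicate 1 (2.22, adjusted p = 0.0589), without TNFα replicate 2 (1.82, adjusted p = 0.143) and with regions merged within 500 bp (1.27, adjusted p = 0.242).

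The region chr8:6598861-6600708, in an MCPH1 intron with 2 AP1 words, ranked 4527.5 and 4125.5 in untreated libraries, 7587 and 6171 under cobimetinib, and 1700 and 789.5 under TNFα. The 3 conditions did not overlap, and untreated cells lay between (2.56 ± 0.78 for TNFα minus cobimetinib, adjusted p = 0.0335, limma). The call was lost without cobimetinib replicate 1 (2.41, adjusted p = 0.12), without cobimetinib replicate 2 (2.71, adjusted p = 0.0526) and without TNFα replicate 2 (2.01, adjusted p = 0.284). The region with the shared sequence, chr8:6648488-6649889, overlapped a UTR exon of MCPH1 and lay 58.8 kb upstream of AGPAT5. It ranked 5666 and 16075.5 in untreated libraries, 10624.5 and 15062.5 under cobimetinib, and 1885.5 and 3965.5 under TNFα. The TNFα libraries both ranked it above the other 4, which overlapped (2.21 ± 0.67, adjusted p = 0.0338). The call was lost without cobimetinib replicate 1 (2.46, adjusted p = 0.0556), without cobimetinib replicate 2 (1.96, adjusted p = 0.158) and without TNFα replicate 1 (1.67, adjusted p = 0.232).

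No other MCPH1/AGPAT5 region passed limma. At chr8:6558484-6560139, in introns of MCPH1 and ANGPT2, both TNFα libraries (6347 and 3273) ranked above the other 4 (10279.5 to 26242), with 1.21 ± 0.64 between TNFα and cobimetinib (adjusted p = 0.27). The MCPH1 intron region with most AP1 words (3), chr8:6547149-6548478, ranked between 5822.5 and 10969 in the 6 libraries, and its TNFα minus cobimetinib difference was 0.25 ± 0.61 (adjusted p = 0.867). The best-ranked untreated peak of the locus was at chr8:6593386-6594828, at rank 672.5 in untreated replicate 2 and 6177.5 in replicate 1. It ranked 7587 and 2483.5 under cobimetinib and 11611 and 5513 under TNFα (-0.88 ± 0.69, adjusted p = 0.498, limma). The region chr8:6584978-6585881 was held by both TNFα libraries (15449.5 and 19263) and no other, with lower peaks at 25105 and 54201 in untreated and cobimetinib replicate 1 and none in both replicates 2.

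At FGF2, the called region was a promoter of another gene. The region chr4:122731882-122733722 lies 93.1 kb upstream of FGF2 at the start of BBS12, a gene of the primary cilium, and ranked 2958.5 and 13195.5 in untreated libraries, 241 and 846 under cobimetinib, and 3273.5 and 4828 under TNFα. The cobimetinib libraries both ranked it above the other 4. TNFα minus cobimetinib was -3.14 ± 0.88, an 8.8-fold better rank under cobimetinib (adjusted p = 0.0206, limma). It did not pass without cobimetinib replicate 1 (-2.23, adjusted p = 0.155), without TNFα replicate 1 (-3.42, adjusted p = 0.0922) or without TNFα replicate 2 (-2.86, adjusted p = 0.24). Cobimetinib against untreated was 3.79 ± 1.07 (adjusted p = 0.218), and 2.71 without untreated replicate 2 (adjusted p = 0.412). Of the distal FGF2 regions, chr4:122783052-122784449, 42.4 kb upstream, ranked 15100 and 45067.5 in untreated libraries, 10279.5 and 8000 under cobimetinib, and 10129.5 and 13643 under TNFα. The region over a UTR exon of FGF2 and an intron of NUDT6, chr4:122897931-122899083, was held by all 6 libraries at ranks between 2725.5 and 18249.

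**Figure D2:**
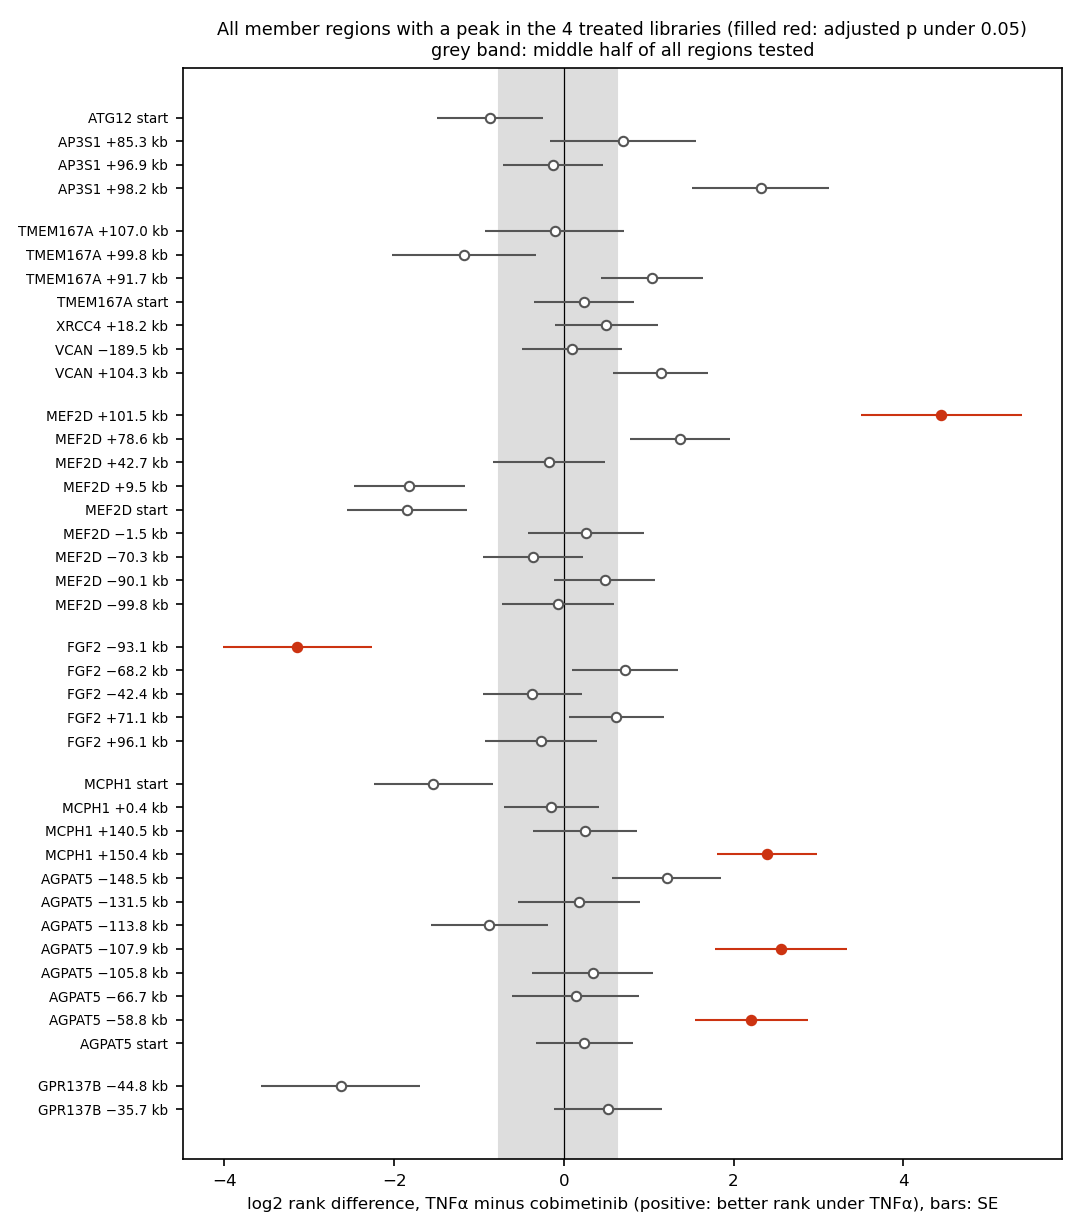
Log2 rank difference between TNFα and cobimetinib for the 39 regions with a peak in all 4 treated libraries, grouped by locus and named by distance from the nearest canonical start of a member gene (points are estimates, bars SE, n = 2 against 2). Filled red points have an adjusted p under 0.05, and the grey band from -0.77 to 0.63 holds the middle 50% of all 21911 regions tested. Of the 5 filled points, 4 lie to the right of 0.

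The regions with the shared sequence elsewhere in the genome ranked mostly better under TNFα than under cobimetinib. Of the 110 such regions outside the 6 loci, 75 could be tested, and TNFα gave the better rank in 21 and cobimetinib in 1 by limma, beside 4.59% and 2.85% of all regions. Their median difference was 1.09, with 62 of 75 positive, beside a median of -0.08 and 46.7% positive over all regions. Array regions outside the loci had 6 of 24 called for TNFα and none for cobimetinib (20 of 24 positive, median 1.29). Against untreated cells, no region with the shared sequence outside the loci passed limma. The counts were 0 of 63 for cobimetinib (median -0.15) and 0 of 75 for TNFα (median 0.90). Array regions there gave 0 of 20 (median -0.51) and 0 of 24 (median 0.72). Over all regions 0.0316% and 0.0311% passed, with medians of 0.29 and 0.27. All these medians against untreated cells include untreated replicate 2. Without it, those over all regions were -0.04 and -0.10. Within the 6 loci the regions with the shared sequence were divided between TNFα and cobimetinib. The GPR137B region (-2.63) and both array regions beyond TMEM167A (-1.18 and -0.11) had negative differences. Those at MEF2D (4.45), MCPH1/AGPAT5 (2.21) and ATG12/AP3S1 (0.70) were positive, and the FGF2 region could not be tested. All these counts come without a test, over regions chosen after the data were seen that share their libraries.

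**Figure D3:**
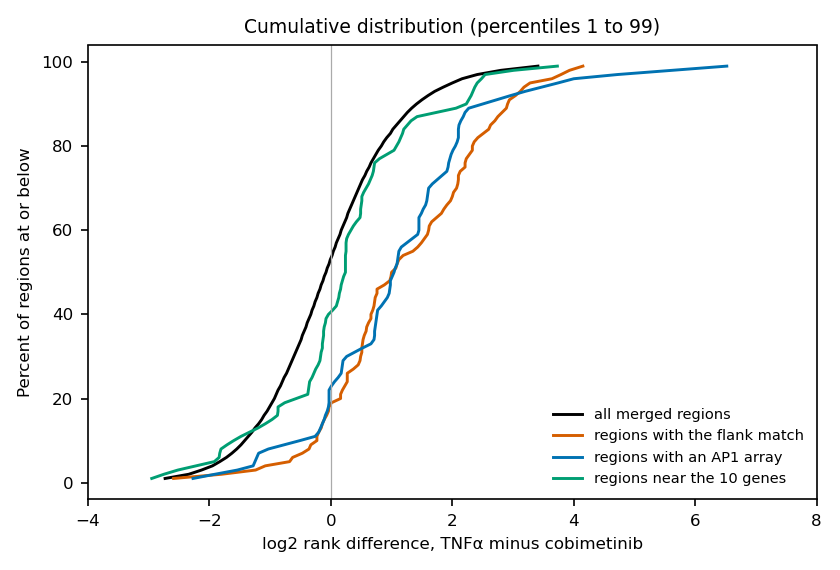
Cumulative distribution of the log2 rank difference between TNFα and cobimetinib, drawn from percentiles 1 to 99, for all merged regions, regions with the match to the GPR137B flank, regions with an AP1 array and regions near the 10 genes. The median lies at -0.08 for all regions, 1.00 for the 81 tested regions with the match and 1.04 for the 28 tested array regions.

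Against untreated cells, few regions of any kind passed. Under cobimetinib, 0 of 39 regions near the 10 genes passed limma (0.0316% of all 18979 regions tested). An unadjusted p under 0.05 was reached by 3, beside 8.82% of all regions. Leaving out either untreated replicate raised the number of calls, both near the 10 genes and over all regions, most of all without untreated replicate 1. Under TNFα, 1 of 41 passed (2.44%, against 0.0311% of 19310). An unadjusted p under 0.05 was reached by 4, beside 5.86% of all regions. Leaving out untreated replicate 1 again raised the number of calls, both near the 10 genes and over all regions. The call was lost when either TNFα replicate was left out. Over all regions the median difference from untreated was 0.29 under cobimetinib and 0.27 under TNFα. Quantile normalization moved these medians to 0.00 and -0.04, and leaving out untreated replicate 2 moved them to -0.04 and -0.10. Both comparisons share their untreated libraries.

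The 1 region that passed was distal to ATG12 and AP3S1. The intergenic region chr5:115940136-115941872, 98.2 kb downstream of the AP3S1 start and beyond the array region, ranked 19587 and 96281 in untreated libraries, 10115 and 2953 under cobimetinib, and 1111.5 and 1082.5 under TNFα. The 3 conditions did not overlap, with TNFα highest and untreated lowest. TNFα minus untreated was 5.31 ± 0.91, a 39.6-fold better rank, at the edge of the threshold (adjusted p = 0.0499, limma). It did not pass without TNFα replicate 1 (5.33, adjusted p = 0.836) or TNFα replicate 2 (5.29, adjusted p = 1). Without untreated replicate 2 it was 4.16 and without untreated replicate 1 6.46, in fits where the spread came from the close TNFα pair alone. Its difference between TNFα and cobimetinib was 2.32 ± 0.81 (adjusted p = 0.0711). The neighbouring distal region chr5:115938836-115939661 ranked between 15725.5 and 53122 and differed by -0.13 ± 0.59 between both treatments.

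Of the 10 genes, 7 had an H3K27ac region at their canonical start. ATG12 and AP3S1 share 1 region over their divergent starts, chr5:115841263-115842900, which ranked 13452 and 7788.5 in untreated libraries, 4573 and 6454 under cobimetinib, and 8987.5 and 10894 under TNFα. The cobimetinib libraries both ranked it best, but the difference from TNFα (-0.87 ± 0.63, adjusted p = 0.455) and from untreated (0.91 ± 0.89, adjusted p = 0.796, limma; 1.31 without untreated replicate 2) did not pass. XRCC4 and TMEM167A share the region chr5:83076623-83078784, which ranked 10439.5 and 5496.5, 9343 and 11131.5, and 11611 and 6466.5 in the same order. Its groups overlapped, with 0.24 ± 0.59 between TNFα and cobimetinib (adjusted p = 0.868).

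MCPH1 had a region over its start and another 0.4 kb downstream. In the first, chr8:6405514-6406683, the ranks were 2284 in untreated replicate 1, 2422.5 and 3307 under cobimetinib, and 5512 and 12358 under TNFα, and untreated replicate 2 had no peak there (-1.54 ± 0.70 between TNFα and cobimetinib, adjusted p = 0.186). In the second, chr8:6407005-6407949, untreated replicate 2 ranked 3794, above the other 5 libraries at 10448 to 14274. AGPAT5, at chr8:6707633-6710000, ranked between 8288 and 21374.5, and the groups overlapped in all comparisons.

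VCAN, FGF2 and GPR137B had no region at their canonical starts. The best deposited peak within 1 kb of the FGF2 start ranked 20457.5 and 75834.5 in untreated libraries, 30214 and 20497.5 under cobimetinib, and 55390.5 in TNFα replicate 2, with none in TNFα replicate 1. For GPR137B, 3 libraries listed a peak, at ranks 36157 to 66701.5, and for VCAN 3 libraries, at 83388 to 113876.5. GPR137B, whose upstream array region was among the highest peaks of every list, had little of the mark at its own start. The only other region upstream of GPR137B, chr1:236105462-236106852, 35.7 kb away, was held by all 6 libraries at ranks 3602 to 12310. For VCAN, the nearest region was in an intron of the gene, 2.4 kb downstream of the start (chr5:83474157-83474978), held by untreated replicate 2 and cobimetinib replicate 2 alone.

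**Figure D4:**
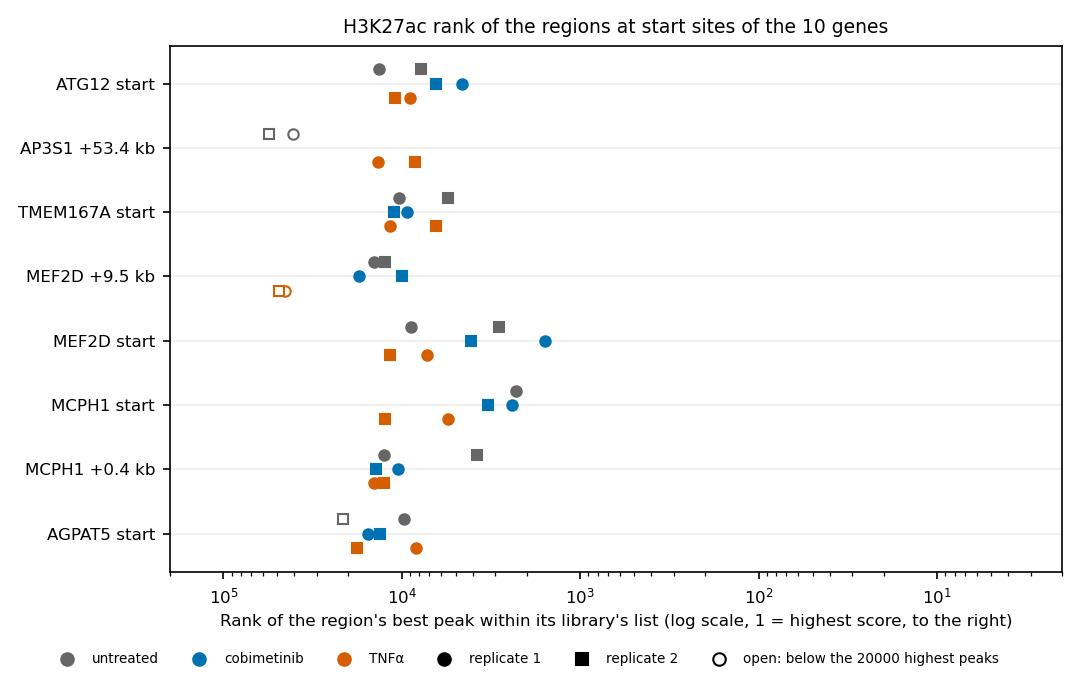
Rank of the best H3K27ac peak in the regions within 1 kb of a transcript start of the 10 genes, by library (log axis, better ranks to the right; colours are conditions, circles replicate 1, squares replicate 2, open symbols peaks below the 20000 highest). ATG12 shares its row with AP3S1 and TMEM167A with XRCC4. VCAN, FGF2 and GPR137B have no row because no region lay there, and the alternative MEF2D start, 9.5 kb into the gene, shows TNFα at 44927.5 and 48561.5.

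Of the 62 regions, 20 were held by all 6 libraries (32.3%, against 20.5% of all regions), 13 of them distal, and 20 by 1 library alone. Single libraries held between 31 (cobimetinib replicate 1) and 39 (untreated replicate 1 and cobimetinib replicate 2). Without untreated replicate 2, 26 regions were held by all the others. No share over all regions was taken for that count or for regions held by 1 library, so both describe the members only. Cobimetinib against untreated gained 2 regions (3.23%, against 3.92% of all regions) and lost 2 (3.23%, against 1.60%). TNFα against untreated gained 3 (4.84%, against 3.56%) and lost 2 (3.23%, against 1.00%). TNFα against cobimetinib gained 5 (8.06%, against 5.41%) and lost 3 (4.84%, against 4.39%). Gained means held by both libraries of the first group and neither of the second, and lost the converse. Single regions cannot be tested this way, and these shares rest on 2 to 5 regions.

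The regions that came and went lay at 4 loci. An alternative AP3S1 start in the gene, chr5:115895293-115896432, was held by both TNFα libraries alone, at 13546.5 and 8445.5, with 40516.5 and 55574.5 in untreated libraries and no peak under cobimetinib. The region 77.9 kb downstream of the AP3S1 start, chr5:115919858-115920538, was held by both cobimetinib libraries alone, at 15529 and 18249. TNFα libraries alone held chr4:122757878-122758672, 68.2 kb upstream of FGF2, at 17754 and 17215, just inside the 20000. Cobimetinib libraries alone held chr4:122797795-122798729, 28.1 kb upstream of FGF2, at 17447 and 16227. Untreated libraries alone held chr4:122922885-122923869, at the starts of NUDT6 and SPATA5, at 16073 and 8823, and the treated libraries had lower peaks there at 21039 to 29053.

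**Figure D5:**
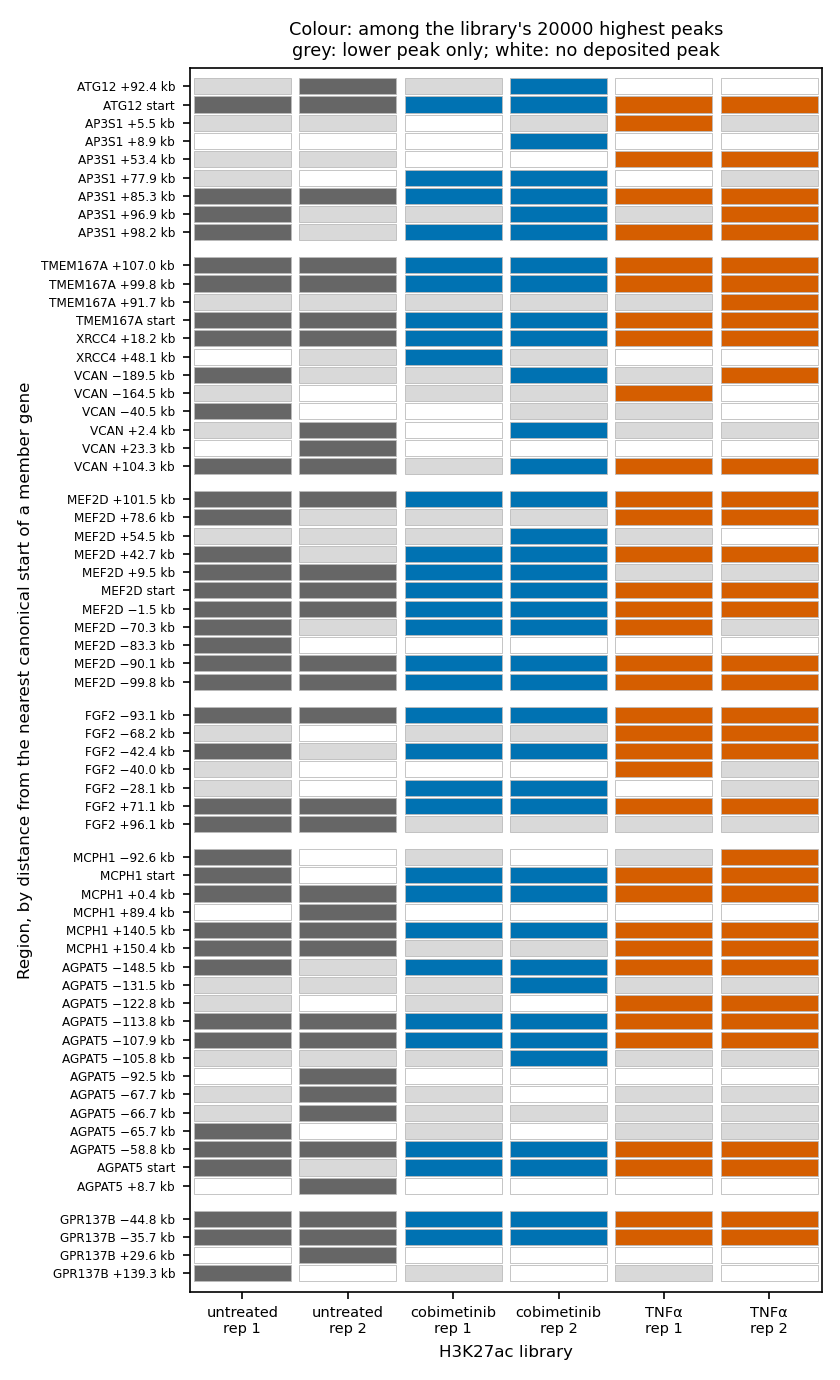
The 62 regions (rows, grouped by locus and named by distance from the nearest canonical start of a member gene) in the 6 libraries (columns). Colour means that the region overlaps one of the library's 20000 highest peaks, grey a lower peak only and white no deposited peak, and 20 rows are coloured across all 6 columns.

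At XRCC4/TMEM167A/VCAN, outside the array regions, 1 distal region was held by all 6 libraries. This was chr5:83095730-83098589 in an XRCC4 intron, 18.2 kb from its start, with 2 AP1 words, which ranked 11262 and 1040.5 in untreated libraries, 6542 and 17073.5 under cobimetinib, and 8400.5 and 6684 under TNFα. The groups overlapped. The VCAN intron region chr5:83576067-83577876, 104.3 kb into the gene, was held by all libraries except cobimetinib replicate 1 and gave 1.14 ± 0.56 between TNFα and cobimetinib (adjusted p = 0.223, limma).

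Start sites of the partners of 2 member genes were read beside them. Of 10 other genes of the ATG12 and LC3 conjugation system, 9 had a start-site region, 6 of them held by all 6 libraries. Of the 9 tested between TNFα and cobimetinib, 1 passed limma, beside 7.43% of all regions, so the count is near that of any regions. This was ATG3, the enzyme that conjugates LC3 to lipid. Its region ranked 2659.5 and 552 in untreated libraries, 276 and 315.5 under cobimetinib, and 6475.5 and 3311 under TNFα, so that both cobimetinib libraries lay above the other 4 (-3.97 ± 0.88, adjusted p = 0.00264). The median difference of the 9 was -0.38. Of 10 genes that join DNA ends beside XRCC4, all had a region and 7 were held by all 6 libraries. None of these 10 passed limma in any comparison, and their median difference between TNFα and cobimetinib was -0.23. ATG5, the conjugation partner of ATG12, ranked between 1296.5 and 4228, and LIG4, the ligase that XRCC4 binds, between 1910 and 15391.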

How the data were processed

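The deposited files are 1 list of H3K27ac peaks per library in hg38 coordinates, each peak with a score. Per the study's methods, the authors trimmed reads with BBDuk, aligned them with BWA (0.7.15 in the submitters' processing notes) and called peaks per library with MACS2 (2.1.1) in paired-end and single-end mode, without IgG background, merging both. IgG libraries (6) were not analysed here. The deposited score is the authors' whole number, at least 20 in every list. It was used only to rank peaks within a list. No list holds read counts, so the study's DESeq2 comparison was not run.

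The 20000 highest peaks of each library were merged within 100 bp. Minus log2 of the average rank of a region's best peak was compared by limma (3.58.1, R 4.3.3, trend, two-sided), with the 4 libraries of both groups, over regions with a peak in each, adjusted by Benjamini-Hochberg (threshold 0.05). An exact permutation test of 2 against 2 cannot go below p = 0.333. Gene models came from GENCODE 44, and sequences from hg38, the files' build, matched with BLAST (2.17.0, E-value limit 1e-10, no low-complexity filter). Members and gene lists were chosen with earlier results of these data known. Named regions are those at start sites, with arrays (otherwise with most AP1 words), the 3 best-ranked distal ones per locus, those called, gained or lost, and those at the window limits. Alternatives are listed in the closing section. Some sequences are not reported here.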

Additional observations from a re-analysis of the deposited data

How the results depend on the processing

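Over 84 alternatives of the 6 called differences, 56 stayed past the threshold, 28 lost it and none changed sign; the cause was not tested. Of 446 alternatives of the 32 differences without a call, 8 crossed the threshold and 26 changed sign. With all 6 libraries in the fit no call between TNFα and cobimetinib was left. A 50 kb window left 3. Keeping regions without a peak at the list length plus 1 gave 9 of 62 between both treatments (9.17% of all regions). For cobimetinib against untreated it gave 2 of 62 (0.622% of all regions). The call of TNFα against untreated went to 0 with 10000, 40000 or all peaks, the lowest rank of ties, merging within 0 or 500 bp, quantile normalization and all 6 libraries. Leaving out 1 library in turn gave 0 to 8 calls for cobimetinib against untreated, 0 to 12 for TNFα against untreated and 1 to 6 between both treatments. Without untreated replicate 1 all regions gave 5170 and 5257 calls against untreated, and without replicate 2 301 and 193. Same-numbered libraries showed little shared deviation (correlations 0.03, 0.09 and 0.06). The labels do not say whether replicate numbers pair the samples, and these correlations cannot settle it. A replicate block gave 1, 1 and 7 calls among the members for cobimetinib against untreated, TNFα against untreated and TNFα against cobimetinib. Over all regions it gave 124, 48 and 2184 (0.653%, 0.249% and 9.97%). Member regions held by all 6 libraries numbered 7 with 10000 peaks, 40 with all peaks and 5 where 50% of the region had to be covered. Shares over all regions were not taken under these settings.

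Differences without a call changed sign as follows. For cobimetinib against untreated, the AGPAT5 start gave -0.12 with the lowest rank of ties, -0.47 after quantile normalization and -0.56 to 0.57 leaving out 1 library; the MCPH1 region chr8:6407005-6407949 gave 0.06 when merged within 500 bp and -1.67 to 0.07; the alternative MEF2D start gave -0.09 after quantile normalization and -0.39 to 0.42; the XRCC4 start gave -0.89 to 0.03. For TNFα against untreated, leaving out 1 library gave -1.02 to 1.07 at chr5:82973733-82977565 (-0.04 after quantile normalization), -0.32 to 0.81 at the AGPAT5 start (-0.16 after quantile normalization), -2.42 to 1.05 at the GPR137B array region, -0.35 to 0.44 at the ATG12 start and -0.66 to 0.27 at the XRCC4 start. Between TNFα and cobimetinib it gave -0.40 to 0.18 at chr5:82969008-82970411, -0.36 to 0.06 at chr8:6407005-6407949, -0.31 to 0.79 at the AGPAT5 start and -0.19 to 0.66 at the XRCC4 start. Ranks do not measure depth, and 2 libraries a group limit every test.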

Other observations

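At ATG12/AP3S1 the window limit left a high-ranking region outside, the nearest one, chr5:116031211-116032865. It lay 136124 bp from a member start and ranked 1575.5 and 149 in untreated libraries, 579.5 and 279.5 under cobimetinib, and 759 and 394 under TNFα. Its ranks were better than those of any region inside the window in 5 of the 6 libraries. The farthest region inside at that locus, chr5:115748566-115749201, at 84465 bp, had no peak under TNFα and ranked between 7788.5 and 74760.5 elsewhere. At MEF2D the limit fell between the promoter of GPATCH4 at 99769 bp, held by all 6 libraries, and a region at 107227 bp held by 1. At XRCC4/TMEM167A/VCAN it fell between an array region at 91564 bp and a region at 109078 bp held by 2 libraries. At MCPH1/AGPAT5 it fell between regions at 92538 and 117347 bp held by 2 libraries and 1, and at GPR137B between regions at 98082 and 141955 bp held by 1 library each. At FGF2 it fell between the NUDT6 and SPATA5 start at 96054 bp and a region at 159183 bp held by 3 libraries. No further AP1 array of 3 words lay within 150 kb of a member start.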
